A study of Mus musculus with 2 samples.

Results

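The cytosolic ribosomal protein (RP) genes encode the protein part of the ribosome that makes proteins in the cytoplasm. They were taken by symbol as Rpl or Rps followed by digits and at most 1 letter, which leaves out pseudogene entries and the Rps6k kinases. The rule found 76 of the 33696 genes in the count tables, 46 of the large subunit (Rpl) and 30 of the small subunit (Rps). It uses no measured value.

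The data were 2 single-cell RNA-seq libraries of CD45+ cells from the thalamus of C57B6/J mice, taken at day 21 after cortical ablation injury (CAI). All mice had the injury and received antibody through a cannula into the thalamus from day 7 to day 19. One library came from mice given control Ab, a normal rat IgG, and the other from mice given anti-CD9 Ab, clone KMC8, which binds the tetraspanin CD9. The study's methods describe pooling the cells of 4 mice for a thalamus library and mice that were primarily female, but do not repeat the pooling for the antibody groups. No uninjured or untreated cells were analysed here. With 1 library per antibody, the groups have no replicates. No p-value can be given, and antibody and library cannot be told apart. Intervals in brackets are 95% intervals that cover the counting of unique molecular identifiers (UMIs) only. For percentages of cells they cover the counting of cells only.

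Each ribosome carries 1 copy of most RPs, and their mRNAs are among the most abundant in any growing cell. RP mRNAs of mammals begin with a run of pyrimidines, the 5′ terminal oligopyrimidine (TOP) motif, through which mTORC1 and LARP1 control their translation and stability together. In immune cells the RP share of the transcriptome is known to differ widely between cell types, with high shares in lymphocytes and low shares in neutrophils.

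To look for such a run, RefSeq promoter windows (build GRCm38.p6) were matched by symbol to 57 of the 76 members, which gave 69 windows of 300 bases. A run of at least 5 C or T bases overlapped the 5 bases before to the 5 bases after the start in 50.7% of the members' windows and in 31.4% of all 32851 windows. CTTTCC, searched on both strands, was in 49.3% of the members' windows and 26.6% of all windows. CCGGAAG, the core of an ETS site, was in 34.8% and 8.86%, and TATAAA in 7.25% and 13.6%. The lines below give 15 bases before and 15 after the annotated start for members whose values are described later, 3 of those with the lowest ratios in microglia-like cells (*Rps4x*, *Rpl9*, *Rpl6*), 3 of those with the highest (*Rps26*, *Rpl31*, *Rpl27*) and 2 whose part in the RP pool was highest in neutrophil-like cells (*Rps9*, *Rps27*). Capitals mark the longest run of C and T in the window. This run spans the annotated start in *Rps9* and *Rps27* only, and in the other genes printed it lies before or after the start. In *Rpl31* a shorter, unmarked run of at least 5 bases also spans the start. The marked runs of *Rpl6*, *Rpl27* and *Rps26* reach into the 5 bases before or after it. A run at the annotated start is a description and not a mapped start site.
Rps4x (chrX:102189377-102189406, minus strand): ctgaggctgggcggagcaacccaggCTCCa
Rpl9 (chr5:65391417-65391446, minus strand): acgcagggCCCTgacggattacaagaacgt
Rpl6 (chr5:121204486-121204515, plus strand): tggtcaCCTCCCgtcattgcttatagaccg
Rps26 (chr10:128626492-128626521, minus strand): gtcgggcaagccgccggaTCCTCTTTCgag
Rpl31 (chr1:39367836-39367865, plus strand): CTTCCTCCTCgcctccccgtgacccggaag
Rpl27 (chr11:101442230-101442259, plus strand): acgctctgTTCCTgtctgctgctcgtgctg
Rps9 (chr7:3704026-3704055, plus strand): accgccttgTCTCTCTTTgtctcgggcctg
Rps27 (chr3:90213634-90213663, minus strand): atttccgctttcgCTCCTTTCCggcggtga

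The control Ab library held 12245 barcodes and 38042608 UMIs, and the anti-CD9 Ab library 15173 barcodes and 40825201 UMIs. With the study's limits of at most 2% mitochondrial counts and 200 to 7500 genes per cell, 7467 and 9162 cells were kept, with a median of 1880 and 1419 UMIs. The cells formed 25 clusters, made without the RP genes, and 17 of them were named from marker genes. The other 8 held 18.5% of the control Ab cells and 20.7% of the anti-CD9 Ab cells. Of the named classes other than cycling-like cells, 8 had at least 50 cells in each library and were compared. Cycling-like cells, of clusters 21 and 22, were left out of the classes compared and are given by cluster at the end. The libraries shared 54 barcodes, 18 of them among the kept cells, and the log2 ratio in microglia-like cells was 0.12 with or without the shared ones. The CD45 sort did not leave immune cells alone, since astrocyte-like and oligodendrocyte-like cells were present.

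The RP share, the percentage of a group's UMIs that came from the 76 genes, was higher under anti-CD9 Ab in 5 classes and lower in 3. Over all kept cells it was 7.17% under control Ab and 7.94% under anti-CD9 Ab, a log2 ratio of 0.15. The median of the share per cell went the other way, from 7.11% to 5.69%. The makeup of the libraries differed widely, with 67 neutrophil-like cells under control Ab and 3495 under anti-CD9 Ab, and 2766 and 887 T cell-like cells. Giving the control Ab library the anti-CD9 Ab library's shares within clusters, at its own makeup, gave 7.76%. Giving it the anti-CD9 Ab library's makeup, at its own shares, gave 7.67%. Either change alone therefore moved the summed share up. The second value leans on few control Ab cells. Clusters 2, 6 and 9 held 7, 29 and 6 control Ab cells beside 1441, 1179 and 770 anti-CD9 Ab cells. Cluster 24 held 0 control Ab cells and so had no control Ab share to apply.

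**Figure D1:**
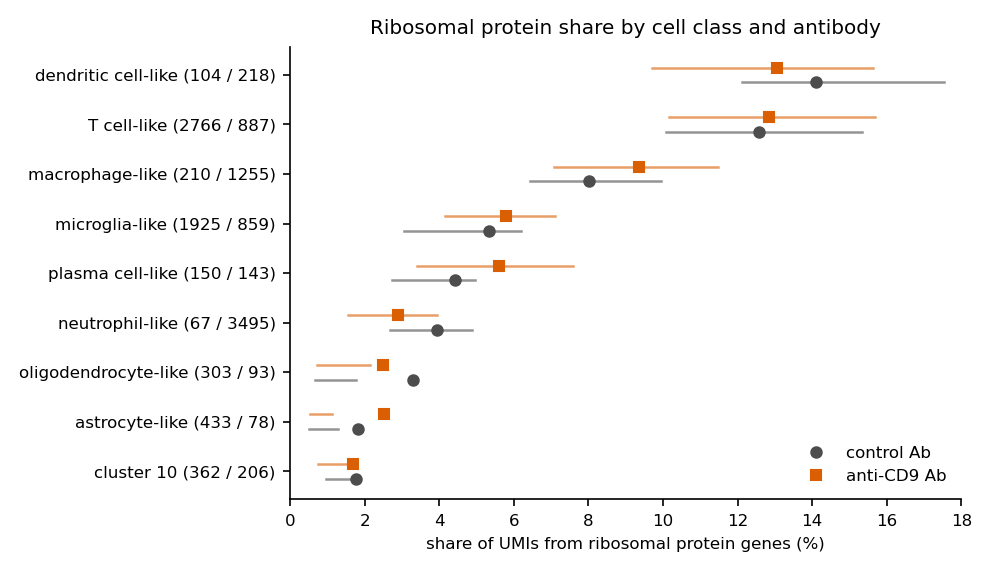
Share of UMIs from the 76 RP genes (%, horizontal axis) in each class and in the unnamed cluster 10, with the number of cells under control Ab and anti-CD9 Ab in brackets. Points are sums over the cells of a library and lines span the middle 50% of single cells. T cell-like and dendritic cell-like cells lie above 12% in both libraries and neutrophil-like, astrocyte-like and oligodendrocyte-like cells below 4%, and in the glial classes the points lie outside the middle 50% of cells.

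Dendritic cell-like cells had the highest share of the classes compared, 14.1% under control Ab and 13.1% under anti-CD9 Ab, a log2 ratio of -0.11 over 104 and 218 cells. T cell-like cells, 2766 and 887, followed with 12.6% and 12.8%, a log2 ratio of 0.030, which was 0.10 when cells of up to 5% mitochondrial counts were kept. Macrophage-like cells had 8.02% and 9.36%, a log2 ratio of 0.22 over 210 and 1255 cells, and of 0.34 without predicted doublets and 0.12 with the limit of 5%. Microglia-like cells had 5.33% (5.32 to 5.34) and 5.79% (5.76 to 5.81), over 1925 and 859 cells, which is 0.12 on the log2 scale (0.11 to 0.13). Plasma cell-like cells, which spend most of their mRNA on immunoglobulin, had 4.41% and 5.61% over 150 and 143 cells, a log2 ratio of 0.35.

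The lowest shares were in neutrophil-like, oligodendrocyte-like and astrocyte-like cells. In neutrophil-like cells the share was 3.93% under control Ab and 2.89% under anti-CD9 Ab, a log2 ratio of -0.44. Of the 67 control Ab cells 54 lay in a single cluster, numbered 5, and within it the share was 3.84% and 3.09%. In oligodendrocyte-like cells it was 3.30% and 2.49% (303 and 93 cells, log2 ratio -0.41), and in astrocyte-like cells 1.81% and 2.52% (433 and 78 cells, log2 ratio 0.48). The median share per cell in these glial classes was lower and closer between the libraries, 1.14% and 1.07% in oligodendrocyte-like and 0.78% and 0.82% in astrocyte-like cells. From the highest share to the lowest the classes stood in the same order in both libraries, except that oligodendrocyte-like and astrocyte-like cells changed places. B cell-like cells were too few to compare, with 29 control Ab cells at 18.1% and 98 anti-CD9 Ab cells at 15.8%.

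Several translation genes outside the rule had levels that followed the RP share across these classes and libraries. Over the 16 points of 8 classes in 2 libraries, the genes outside the rule whose level followed the RP share most closely were *Rps3a1*, *Rack1*, *Naca*, *Eef1b2* and *Rplp1*, with Pearson correlations of 0.98, 0.98, 0.98, 0.97 and 0.97 among 1849 genes with at least 100 CPM on average. *Rps3a1* and *Rplp1* are ribosomal proteins and *Rack1* binds the ribosome, and the symbol rule misses them by name. *Naca* is a chaperone at the exit of nascent chains and *Eef1b2* an elongation factor. The 16 points share 2 libraries, and each class gives 1 point in each, so these values describe likeness only.

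The RP pool was not of the same make in every class. *Rps7*, a small subunit protein, had the steadiest share of all RP UMIs, from 2.28% to 2.71% between classes, and *Rpl19* had 2.27% to 2.77%. *Rps27l*, a paralog of *Rps27* that p53 induces, ranged most among the well-counted members, from 0.10% in T cell-like to 0.603% in plasma cell-like cells, 6.02-fold. Neutrophil-like cells were set apart by a larger part of *Rps9*, 4.93% against 1.86% in plasma cell-like cells, and of *Rps25* and *Rps27*, with 1.28% and 1.47%. They had the smallest part of *Rpl3*, 0.57%, which reached 1.47% in microglia-like cells. *Rpl3* sits at the catalytic centre of the large subunit and is among the earliest to join it. Processed pseudogene copies of many RP genes lie in the genome, and reads of nearly identical sequence could have been split or dropped when the authors counted, so single members are less certain than the sum.

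Microglia-like cells came from 2 clusters. Cluster 3 was led by *Lpl*, *Cst7* and *Spp1*, genes of the damage-associated state, and cluster 4 by *Siglech* and P2ry12, genes of homeostatic microglia. All 10 microglial markers were detected in both libraries, with a summed level of 13203 CPM, a level scaled to all UMIs of the cells, under control Ab and 8513 under anti-CD9 Ab, 9 of them lower and 1 higher. Damage-associated genes summed to 34169 and 9416 CPM. Cluster 3 had the higher RP share, 6.16% under control Ab and 6.54% under anti-CD9 Ab over 1007 and 428 cells, a log2 ratio of 0.086. In cluster 4 the share was 3.72% and 4.91% over 918 and 431 cells, a log2 ratio of 0.40. With the clusters weighted equally the share was 4.94% and 5.72%.

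In microglia-like cells the mean of both the RP UMIs and all other UMIs per cell was lower under anti-CD9 Ab. A cell held on average 294.9 RP UMIs under control Ab and 206.8 under anti-CD9 Ab, and 5240 and 3367 other UMIs. The median UMIs per cell were 3170 and 3337, while the 360 deepest control Ab cells, of 8000 or more UMIs, outnumbered the 20 such cells under anti-CD9 Ab. Within bins of UMIs per cell the mean RP UMIs went either way. Below 4000 UMIs per cell they were higher under anti-CD9 Ab, with 133.5 and 167.0 at 2000 to under 4000 UMIs. In deeper cells they were lower, with 904.5 and 722.4 at 8000 or more UMIs. The other UMIs per cell were lower there too, so these cells were not of equal depth. They were 5337 and 4781 at 4000 to under 8000 UMIs. At 8000 or more UMIs, a bin without an upper limit, they were 14977 and 9634. The median share per cell was 4.46% and 5.36%, a log2 ratio of 0.26. Some of the most abundant other genes differed widely, as described after their values were seen. *Spp1*, osteopontin, went from 27949 to 7039 CPM and *Apoe*, a lipid carrier, from 18645 to 13877 CPM, while *Fth1*, ferritin heavy chain, went from 6489 to 12240 CPM. With mitochondrial genes, *Malat1* and the 20 most abundant other genes left out of the total, the log2 ratio of the RP share was 0.075.

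By depth, the RP share of microglia-like cells was higher under anti-CD9 Ab in each of the 5 bins of UMIs per cell. It was 4.0% and 6.54% in cells of 500 to under 1000 UMIs (41 and 21 cells) and 3.88% and 7.63% at 1000 to under 2000 UMIs (434 and 110 cells), log2 ratios of 0.71 and 0.98. At 2000 to under 4000 UMIs it was 4.80% and 5.57% (673 and 445 cells, log2 ratio 0.21), and at 4000 to under 8000 UMIs 5.30% and 5.56% (417 and 263 cells, log2 ratio 0.07). The cells of 8000 or more UMIs had 5.70% and 6.98%, but were 360 under control Ab and 20 under anti-CD9 Ab. Predicted doublets made up 19.7% and 95% of the cells in this bin, and 5.04% and 28.5% in the bin before it. With control Ab the share was larger in deep cells than in shallow ones, and under anti-CD9 Ab it was largest at 1000 to under 2000 UMIs. The rank correlation of RP share with UMIs over single cells was 0.34 under control Ab and -0.12 under anti-CD9 Ab. Within cluster 3 alone it was 0.10 and -0.18, and within cluster 4 alone 0.20 and -0.16. Under control Ab it was thus smaller within each cluster than over both. The cells of a library share its preparation, so this is a description.

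**Figure D2:**
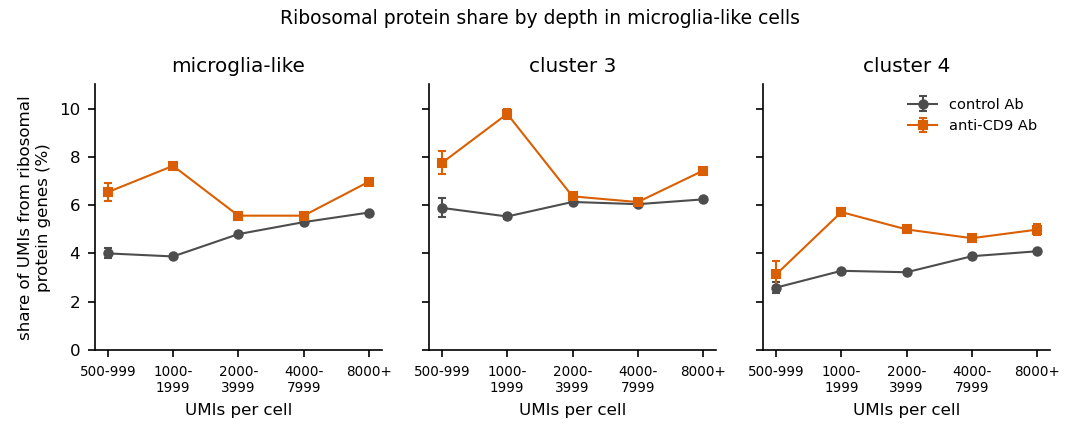
Share of UMIs from the 76 RP genes (%, vertical axis) by UMIs per cell in 5 bins (horizontal axis), for microglia-like cells, cluster 3 and cluster 4, with 1 line per antibody and bars for the counting interval. The anti-CD9 Ab line lies above the control Ab line in every bin of all 3 plots, in microglia-like cells by 0.98 on the log2 scale at 1000 to under 2000 UMIs and by 0.07 at 4000 to under 8000 UMIs. At 8000 or more UMIs the anti-CD9 Ab points rest on 20, 16 and 4 cells.

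Both microglia-like clusters had the higher share under anti-CD9 Ab in every depth bin, but some bins held few cells. At 8000 or more UMIs cluster 3 had 255 and 16 cells, of which 23.9% and 93.75% were predicted doublets. In that bin cluster 4 had 105 and 4 cells, with 9.52% and 100%. At 500 to under 1000 UMIs cluster 4 had 22 and 5 cells. Doublets were 7.30% and 41.8% in cluster 3 at 4000 to under 8000 UMIs. In cluster 3 it was 5.53% under control Ab and 9.78% under anti-CD9 Ab at 1000 to under 2000 UMIs, and 6.04% and 6.13% at 4000 to under 8000 UMIs. In cluster 4 the same bins had 3.28% and 5.71%, and 3.89% and 4.63%. When every bin was weighted by the cells of both libraries, the share of microglia-like cells was 4.85% under control Ab and 6.18% under anti-CD9 Ab, a log2 ratio of 0.35 or 1.28-fold, and of 0.41 without predicted doublets. Standardised in the same way, cluster 3 had 6.05% and 6.93% (log2 ratio 0.20), cluster 4 had 3.42% and 5.09% (0.58), T cell-like cells 12.5% and 13.5% (0.10) and macrophage-like cells 8.52% and 9.37% (0.14). In microglia-like cells the bin of 8000 or more UMIs took most of its weight from 360 control Ab cells beside 20 anti-CD9 Ab cells. Of those 20 cells 95% were predicted doublets, so the 0.41 rests on very few anti-CD9 Ab cells there.

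Cells with very few RP UMIs were more frequent among control Ab microglia-like cells. After each cell was thinned to 1000 UMIs, which left out 41 and 21 shallower cells, 9.18% (7.92 to 10.6) of control Ab cells and 2.27% (1.37 to 3.52) of anti-CD9 Ab cells had under 2% RP UMIs. Without thinning the values were 9.45% and 1.86%. After thinning they were 15.2% and 1.88% in cluster 4. In cluster 3 they were 3.74% (2.65 to 5.13) and 2.67% (1.34 to 4.73). The intervals of these percentages cover the counting of cells only. Cells of a library are not replicates, so the intervals decide nothing between the antibodies. At the other end, 3.56% and 6.92% of thinned microglia-like cells had over 10% RP UMIs. A further cluster, numbered 10 and led by *Lysmd4* and *Gm2245*, carried 3 of the 10 microglial markers and was not named. Its RP share was 1.75% under control Ab and 1.68% under anti-CD9 Ab over 362 and 206 cells, with a median of 817 and 826 UMIs. Without thinning, 79.6% and 80.6% of the cells of cluster 10 had under 2% RP UMIs. They are not part of the contrast above, which holds only for the cells named microglia-like. With the limit of 5% mitochondrial counts, a cluster led by *Gm35188* and *Lysmd4* was named microglia-like.

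*Malat1*, a nuclear RNA whose share rises in damaged cells and bare nuclei, was lower where the RP share was higher within each library. In microglia-like cells it took 0.97% of UMIs under control Ab and 1.47% under anti-CD9 Ab. Over single cells the rank correlation of RP share with the *Malat1* share was -0.63 under control Ab and -0.42 under anti-CD9 Ab. With the cells split into 3 groups of equal number by *Malat1* share, the control Ab cells had RP shares of 6.45%, 4.65% and 3.31%, and the anti-CD9 Ab cells 7.03%, 5.60% and 4.70%, from low to high *Malat1*. The anti-CD9 Ab cells had both the larger RP share and the larger *Malat1* share. Mitochondrial counts took 1.10% and 1.11%. Predicted doublets were 5.19% of control Ab and 15.4% of anti-CD9 Ab microglia-like cells, and without them the log2 ratio of the RP share was 0.18. These percentages leave out cluster 18, of 210 control Ab and 27 anti-CD9 Ab cells, which had 5 of the 10 microglial markers up. It was left unnamed because 99.2% of its cells were predicted doublets.

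**Figure D3:**
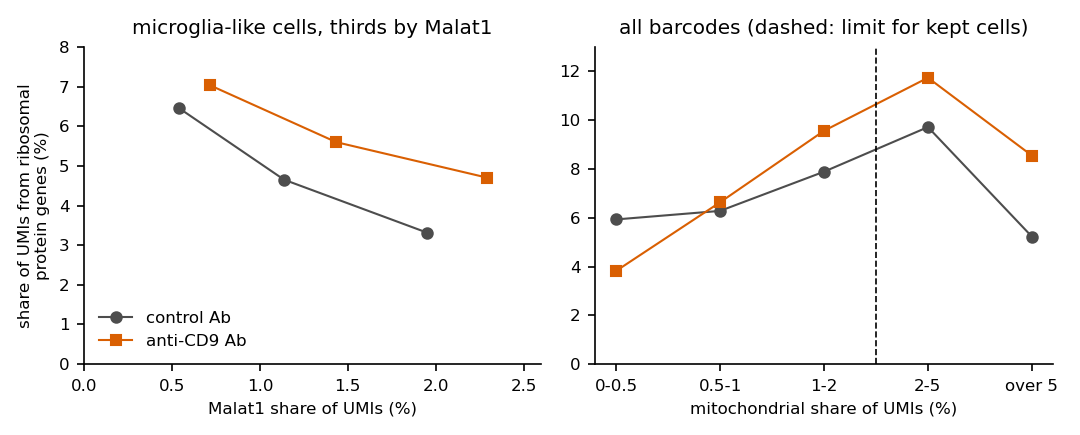
RP share of UMIs (%, vertical axes) of microglia-like cells against their *Malat1* share (%), in 3 groups of equal number, and of all barcodes by mitochondrial share (%), where the dashed line marks the limit for kept cells, for both libraries. The RP share falls from low to high *Malat1* share in both libraries, and among barcodes with 2 to 5% mitochondrial counts, which the limit leaves out, it is 9.72% under control Ab and 11.7% under anti-CD9 Ab.

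Markers of other cells differed within microglia-like cells. Neutrophil markers summed to 580.2 CPM under control Ab and 1406 under anti-CD9 Ab (8 of 10 higher), interferon-stimulated genes to 593 and 1464 CPM (6 of 6 higher) and erythroid genes to 14.1 and 445 CPM (5 of 5 higher). Astrocyte markers summed to 311 and 478 CPM, although 7 of 8 were lower. T cell markers summed to 229.8 and 27.4 CPM (10 of 10 lower), dendritic cell markers to 709.9 and 551 CPM (8 of 10 lower), plasma cell markers to 218 and 135 CPM (4 of 7 lower), and macrophage markers to 2384 and 1992 CPM, although 11 of 14 were higher. Of the NK cell markers, *Ncr1*, *Klrb1c*, *Klre1*, *Klra8* and *Eomes* were at 0 under anti-CD9 Ab, and the list summed to 14.5 and 5.54 CPM. The part of any of these in the RP share was not tested.

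Single RP genes were compared as CPM over all microglia-like cells. Of the 76 members 73 had at least 50 UMIs over both libraries. The other 3 are paralogs expressed mainly in testis or muscle. *Rpl39l* had 22 UMIs under control Ab and 11 under anti-CD9 Ab, *Rpl3l* had 0 and 1, and *Rpl10l* had 0 in both, which by a limit of 3 UMIs allows up to 0.282 and 0.977 CPM. Of the 73 measured members 52 were higher under anti-CD9 Ab and 21 lower, with a median log2 ratio of 0.22. The median over all 11127 genes measured in these cells was 0.01. A level at least 25% higher than under control Ab was reached by 22 members, and 0 were at least 20% lower. Of all measured genes 19.1% were past the first limit and 20.6% past the second, and the same pair of limits is used for all counts of genes below. *Rps4x*, *Rpl3* and *Rpl7* lay just inside the lower limit, at 0.8004, 0.805 and 0.808 of their control Ab level. Measured members had a mean of at least 88.1 CPM, while other genes needed only 50 UMIs. Ratios of genes with fewer UMIs pass the limits more often by counting error alone. The counting interval lay above 0 for 47 members and below 0 for 13. The share of all measured genes with such intervals is not given here. The shares of 19.1% and 20.6% belong to the limits and not to the intervals. Counting intervals are narrower for genes with more UMIs, so the counts of 47 and 13 do not set the members apart from other genes.

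**Figure D4:**
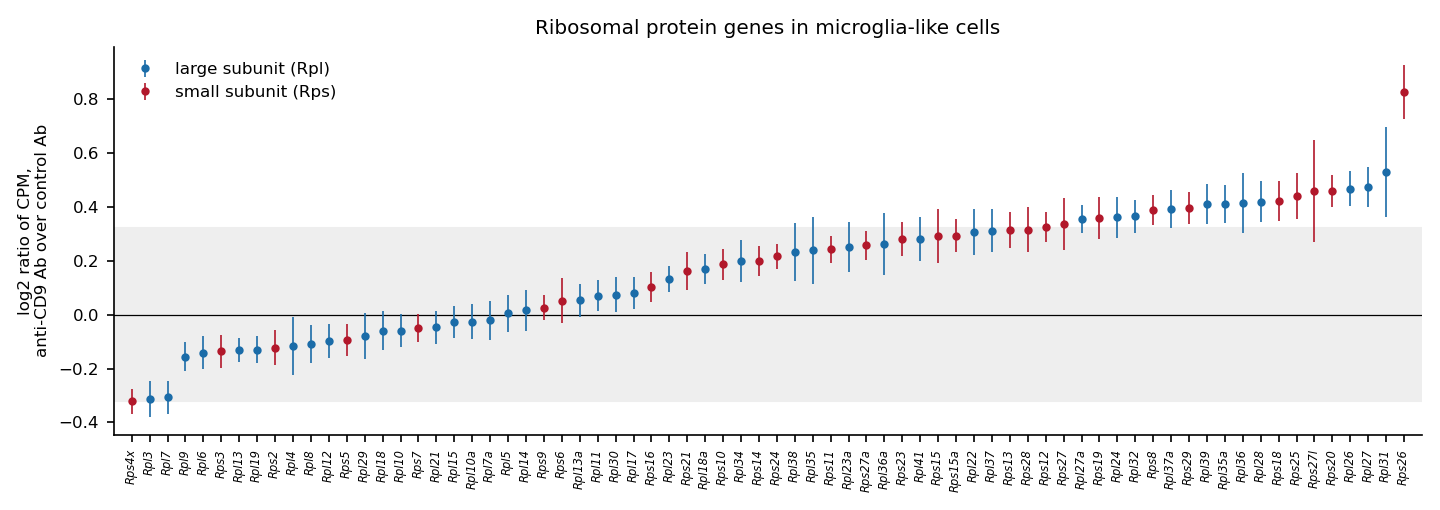
Log2 ratio of CPM (anti-CD9 Ab over control Ab, vertical axis) of 72 of the 73 measured RP genes in microglia-like cells, in order of ratio, in blue for the large and red for the small subunit. Bars are counting intervals and the grey band spans the limits for a count. Of the 72 genes 51 lie above 0, with *Rps26* the highest at 0.83 and *Rps4x* the lowest at -0.32.

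By subunit, the small subunit had the higher median log2 ratio, 0.29 over 30 genes against 0.08 over 43 genes of the large subunit, with 11 genes past the upper limit in each. The widest ratio was that of *Rps26*, which contacts the mRNA where it leaves the ribosome. Its level was 215 CPM under control Ab and 381 under anti-CD9 Ab (log2 ratio 0.83, interval 0.72 to 0.93). *Rps20*, of the small subunit head, had 754 and 1036 CPM (log2 ratio 0.46). These genes were higher under anti-CD9 Ab than control Ab by more than their counting error. Of the large subunit, *Rpl31*, which lies near the exit of the nascent chain, had 92.2 and 133 CPM (0.53), *Rpl27* had 460 and 639 (0.47), and *Rpl26*, which lies near the exit tunnel, had 624 and 862 (0.47).

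The lowest ratio was that of *Rps4x*, the X-linked form of this small subunit protein, with 1826 CPM under control Ab and 1462 under anti-CD9 Ab (log2 ratio -0.32, -0.37 to -0.27). *Rpl3* had 902 and 726 CPM and *Rpl7* 1066 and 862, both with a log2 ratio of -0.31. *Rpl9* had 1208 and 1084 CPM (-0.16), *Rpl6* had 968 and 878 (-0.14) and *Rps3*, which lines the entry of the mRNA, had 992 and 903 (-0.14). None of these 6 passed the lower limit. The members with the highest mean CPM included *Rpl13* at 1736 and 1585 CPM (-0.13) and *Rps9* at 1538 and 1566 (0.03). They also included *Rps24* at 1320 and 1533 (0.22) and *Rpl23* at 1336 and 1464 (0.13). The 3 members that the study's text names lay within the limits. The study names them as reduced in a microglial state that differed from its other states, and not between antibodies. *Rps16* had 1000 and 1073 CPM (0.10), *Rps23*, at the decoding centre, 709 and 861 (0.28), and *Rpl19* 1462 and 1336 (-0.13). *Rps27l* had 74.2 and 102 CPM (0.46), and *Rpl22*, which has a close paralog outside the rule, 381 and 472 (0.31).

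The microglia-like clusters differed in how many members passed the limits. In cluster 3, 20 of 73 were higher and 1 lower, beside 21.7% and 22.3% of all genes. In cluster 4, 49 were higher and 0 lower, beside 17.5% and 22.9% of all genes. *Rps26* had log2 ratios of 0.80 in cluster 3 and 1.09 in cluster 4, and *Rps4x* of -0.31 and -0.11. In the unnamed cluster 10, with 66 measured members, 13 were higher and 18 lower, beside 27.5% and 22.4% of all genes. These counts rest on few UMIs. The interval of some members past the limits held 0, such as *Rpl29* with 44 and 15 UMIs (-1.53 to 0.16). That of others did not, such as *Rps27* with 28 and 34 UMIs (0.43 to 1.87).

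Counts past the limits differed widely between the other classes. Among macrophage-like cells 35 of 73 members were higher and 3 lower, beside 26.2% and 29.8% of all genes, with *Rpl31* (log2 ratio 0.76) and *Rps27* (0.75) the highest and *Rpl3* (-0.40), *Rpl10a* (-0.39) and *Rpl12* (-0.33) the lowest. These cells also differed in doublet calls, 11.4% under control Ab and 25.7% under anti-CD9 Ab, and in damage-associated genes, which summed to 71318 and 2674 CPM. Among T cell-like cells 8 were higher and 0 lower, beside 12.6% and 24.9%, with *Rps27l* (0.68) and *Rps26* (0.61) the highest and *Rpl6* and *Rps4x* (both -0.31) the lowest. Plasma cell-like cells had 40 higher and 0 lower, beside 37.7% and 18.1%, led by *Rps27l*, from 166 to 466 CPM (1.49). In dendritic cell-like cells 6 were higher and 10 lower, beside 23.5% and 22.1%, with *Rpl3* lowest, from 2256 to 1525 CPM (-0.57). In neutrophil-like cells 4 were higher and 43 lower, beside 35.9% and 40.8%, with *Rpl7a* (-1.62) and *Rps4x* (-1.52) lowest. Astrocyte-like cells had 42 of 71 higher and 2 lower (23.4% and 33.6%), and oligodendrocyte-like cells 4 of 71 higher and 35 lower (26.7% and 31.9%).

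*Rps26* was higher under anti-CD9 Ab in the 5 immune classes besides microglia in which its ratio is given here, with log2 ratios of 0.61 in T cell-like, 0.59 in macrophage-like, 0.40 in dendritic cell-like, 0.83 in plasma cell-like and 0.88 in neutrophil-like cells. In neutrophil-like cells the interval, 0.02 to 1.74, nearly reached 0. In the same order, the log2 ratios of *Rps4x* were -0.31, -0.09, -0.35, -0.03 and -1.52.

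The members' ratios followed the length of their coding sequence. This was looked at after the ratios were known. Over the 73 members in microglia-like cells the rank correlation of log2 ratio with coding length, taken from GENCODE, was -0.75. The 25 shortest, of 75 to 405 bases, had a median log2 ratio of 0.33 and all 25 were higher under anti-CD9 Ab. The next 24, of 405 to 552 bases, had a median of 0.25 and 21 were higher. The 24 longest, of 564 to 1257 bases, had a median of -0.08 and 18 were lower. The same rank correlation was -0.74 in each of clusters 3 and 4, -0.62 in macrophage-like, -0.57 in T cell-like, -0.54 in dendritic cell-like and -0.53 in plasma cell-like cells, and between -0.37 and -0.44 in cluster 10, oligodendrocyte-like, neutrophil-like and astrocyte-like cells. All of these compare the same 2 libraries. Outside the RP genes it was 0.12 over 9906 genes and -0.03 over the 4483 within the members' range of lengths. Over the 775 of these with at least 100 CPM it was -0.06, and over 78 mitochondrial RP genes -0.17. Contrasts within a library gave -0.02 under control Ab and -0.43 under anti-CD9 Ab for cells of high against low *Malat1* share. They gave 0.15 and -0.02 for shallow against deep cells, and 0.12 and 0.04 for cluster 4 against cluster 3. Of these, -0.43 lies within the range of -0.37 to -0.44 given above, and the others are nearer 0. The rank correlation with the members' own level was -0.46 and with the length of the whole spliced transcript -0.43. A single annotated transcript stood for each gene, and some were long beside their coding part, such as *Rps15a* with 5179 and 390 bases. What the pattern comes from was not tested.

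**Figure D5:**
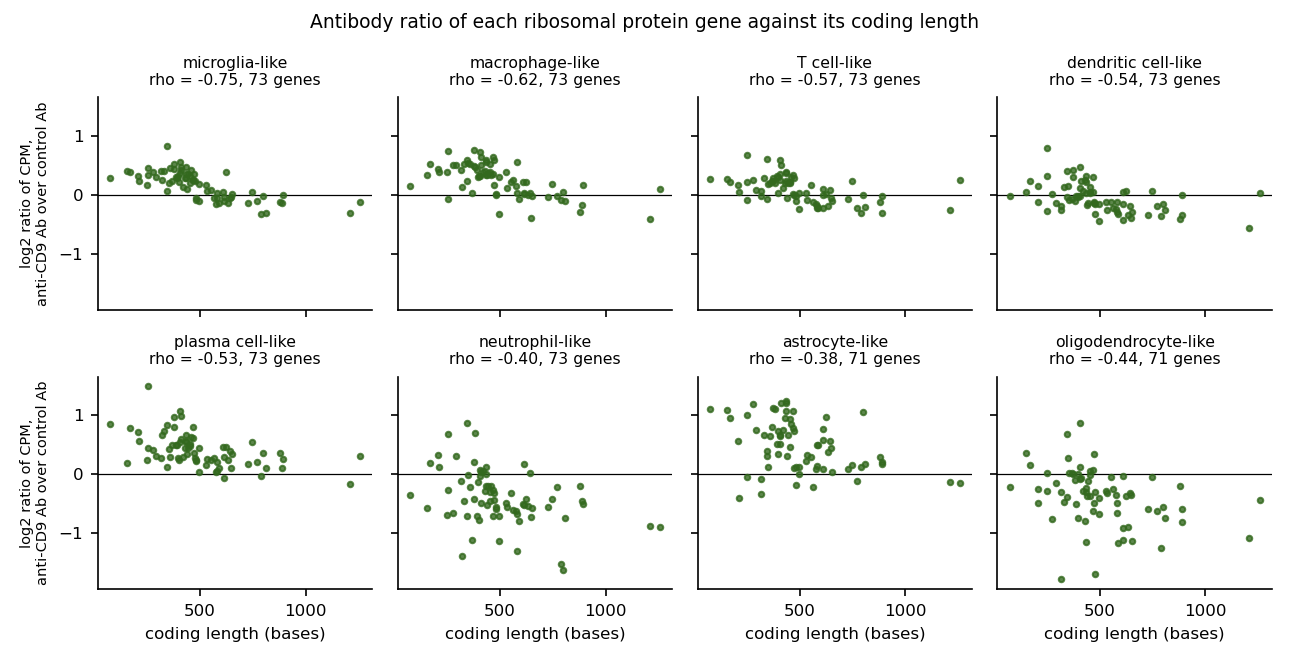
Log2 ratio of CPM (anti-CD9 Ab over control Ab, vertical axes) of the measured RP genes against coding length (bases, horizontal axes) in the 8 classes, 1 point per gene, with the rank correlation (rho) above each plot. In microglia-like cells all 25 genes with the shortest coding sequences lie above 0 and 18 of the 24 longest below 0, and rho runs from -0.75 in these cells to -0.38 in astrocyte-like cells.

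Ribosomal proteins outside the symbol rule, and other genes of translation, were counted in microglia-like cells in the same way. Of 10 measured ribosomal proteins outside the rule 4 were higher and 1 lower, with a median log2 ratio of 0.05. The highest was *Rplp2*, of the stalk (0.38). *Rplp0*, which holds the stalk, had 1133 CPM under control Ab and 934 under anti-CD9 Ab (-0.28), and *Rpsa* had 937 and 804 (-0.22). *Rack1*, a scaffold on the small subunit, had 681 and 692 CPM (0.02), and *Rps3a1* 1591 and 1360 (-0.23). The paralogs *Rpl36al* (161 and 204 CPM), *Rpl22l1* (127 and 134) and *Rpl7l1* (58.7 and 53.4) had log2 ratios of 0.35, 0.08 and -0.13. The 4 entries that the rule drops as pseudogenes were nearly empty, the largest being *Rpl10-ps3* at 15.0 and 16.3 CPM.

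Other mRNAs that carry a TOP motif had a lower median than the RP genes. Of 20 measured 3 were lower and 0 higher, with a median of -0.07, from *Vim* (-0.53) to *Cct3* (0.31). The elongation factors *Eef1a1*, at 3824 and 2949 CPM (-0.38), and *Eef2*, at 311 and 233 (-0.42), were lower, and *Tpt1*, a TOP mRNA of high level, had 4054 and 3449 CPM (-0.23). The 22 initiation factors had a median of 0.01, with 3 higher and 0 lower, from *Eif5a* (-0.31) to *Eif5b* (0.57). Ribosome biogenesis factors had 6 of 34 higher and 3 lower and a median of 0.06, from *Rrp9* (-0.80) to *Rpf2* (0.58). Of the nucleolar proteins, *Npm1* was at 391 and 395 CPM (0.01), *Ncl* at 148 and 141 (-0.07) and *Fbl* at 63.0 and 73.0 (0.21).

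Mitochondrial RP genes, which encode the separate ribosome of the mitochondrion, summed to 2481 CPM under control Ab and 2428 under anti-CD9 Ab. Of 78 measured 8 were higher and 12 lower, with a median of -0.07, from *Mrpl16* (-0.93) to *Mrpl47* (0.65). Genes of mTORC1 and TOP control had 4 of 20 higher and 3 lower and a median of -0.02, from *Lamtor5* (-0.41), of the complex that anchors mTORC1 to the lysosome, to the mTORC1 inhibitor *Ddit4* (0.86). Of the genes known to move with tissue dissociation, 5 of 20 were higher and 10 lower, with a median of -0.27, from *Egr2* (-1.94) to *Nr4a1* (1.22). *Malat1* had 9719 and 14676 CPM, a log2 ratio of 0.59.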

How the data were processed

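Cells were CD45+ thalamic cells in 10x 3′ v3.1 libraries, 1 per antibody. Per the file headers, the authors counted UMIs with Cell Ranger 8.0.0 and the notes name GRCm39, while the methods name v6.0.2 and GRCm38, and the deposited values are raw UMI counts of called cells. Members and lists were chosen with earlier results of these data known. For the 26 symbols found on several lines, the one listed first was taken. Cells with at most 2% mitochondrial counts and 200 to 7500 genes were kept, and predicted doublets were marked but kept. Clusters made mostly of predicted doublets were left unnamed, so their cells were in no class. Libraries were joined by Seurat 5.3.0 anchors (R 4.3.3; 2000 variable genes without RP, other translation and mitochondrial genes, *Malat1* and *Neat1*; 30 dimensions) and clustered at resolution 0.8. Clusters were named where at least 50% and at least 3 of a class's markers were up (log2 ratio of at least 1 with 20 CPM added, UMIs in at least 10% of cells), a threshold set after the clusters were seen. Those where classes tied, or where another class had more markers among the leading genes, were also left unnamed. Counts were summed per class and library (Python 3.11.15, pandas 2.3.3, scipy 1.17.1), and exact binomial and Poisson intervals and counting intervals of ratios were computed. No test was run, since there is 1 library per antibody. Ratios were checked on simulated data. Genes at least 25% higher or 20% lower were counted among those of at least 50 UMIs. Named genes were the 5 members with the highest mean CPM of the 2 libraries and the study's 3. The 6 highest and 6 lowest ratios of members with at least 200 UMIs were also named. So were paralogs, and the ends of each list with fixed examples. Of the genes this rule names, 2 are not reported here. Other named genes (leading genes of clusters, of the denominator and members at the ends of other classes) were chosen after their values were seen. Promoters and gene models came from RefSeq and GENCODE vM21, neither with the files' coordinates. Alternatives were other limits on mitochondrial counts, doublets, integration, dimensions, resolution, denominators and depth.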

Additional observations from a re-analysis of the deposited data

Results flagged for a closer look

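The log2 ratio of RP share, anti-CD9 Ab over control Ab, went in opposite directions between classes, and this difference was not tested, since each class has 1 library per antibody. It was 0.12 in microglia-like, 0.22 in macrophage-like, 0.030 in T cell-like, 0.35 in plasma cell-like and 0.48 in astrocyte-like cells, and -0.44 in neutrophil-like, -0.11 in dendritic cell-like and -0.41 in oligodendrocyte-like cells. The classes with few cells in 1 library were neutrophil-like (67 under control Ab), astrocyte-like (78 under anti-CD9 Ab) and oligodendrocyte-like (93 under anti-CD9 Ab).

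Barcodes with 2 to 5% mitochondrial counts, which the limit of 2% removes, had an RP share of 11.7% under anti-CD9 Ab (5293 barcodes) and 9.72% under control Ab (4226 barcodes), above the share in each of the bins below 2% in the same library.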

How the results depend on the processing

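None of the values in this paragraph changed sign under the alternatives run, which were not run for the other classes or single genes, and all alternatives compare the same 2 libraries. No paired analysis was possible because each antibody has 1 library and no result comes from a test. The log2 ratio of RP share in microglia-like cells, 0.12, was 0.13 with a limit of 5% mitochondrial counts, 0.18 without predicted doublets, 0.17 without integration, 0.26 for the median per cell, 0.075 with mitochondrial genes, *Malat1* and the 20 most abundant other genes out of the denominator, and 0.29 with cells thinned to 1000 UMIs. Without integration 1946 and 202 cells were named microglia-like, and 87 control Ab and 605 anti-CD9 Ab cells lay in an unnamed cluster with 4 of 10 microglial markers, so values under that setting rest on fewer anti-CD9 Ab cells than the 859 otherwise used. In T cell-like cells, 0.030, it was 0.10 with 5% mitochondrial counts, 0.037 without doublets, 0.010 without integration, 0.018 with 20 dimensions, 0.017 at resolution 0.4, 0.011 for the median and 0.039 with the reduced denominator. In macrophage-like cells, 0.22, the values in the order 5% mitochondrial counts, no doublets, no integration, 20 dimensions, resolution 0.4, reduced denominator and thinning were 0.12, 0.34, 0.12, 0.19, 0.20, 0.16 and 0.16. The depth-standardised log2 ratio, 0.35, was 0.29 with 5% mitochondrial counts, 0.41 without doublets, 0.34 with 20 dimensions and 0.33 with the reduced denominator. Without doublets, very few anti-CD9 Ab cells were left in the bin of 8000 or more UMIs. The median member log2 ratio, 0.22, was 0.28 without doublets, 0.26 without integration, 0.19 with 20 dimensions, 0.17 with the reduced denominator and 0.24 with no UMI minimum. Members at least 20% lower, 0, were 3 with the reduced denominator. Classes with a lower share, 3 of 8 compared, were 4 of 9 with 20 dimensions and without integration. Chosen after seeing the data, adding the low-share cluster 10 to the microglia-like cells gave 0.089 for the share, 0.30 standardised, 0.19 for the median and 3 lower members. Cluster 3 alone gave 0.086, 0.20, 0.17 and 1, and cluster 4 alone 0.40, 0.58 and 0.46. The cause of these shifts was not tested. The neutrophil-like comparison rests on 67 control Ab cells.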

Other observations

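By mitochondrial counts, barcodes under 0.5% had an RP share of 5.93% under control Ab and 3.82% under anti-CD9 Ab, those of 0.5 to 1% had 6.28% and 6.63%, and those of 1 to 2% had 7.89% and 9.56%. Barcodes above 5% had 5.23% and 8.55%. Below 0.5% the summed share was thus larger under control Ab, and in the other bins under anti-CD9 Ab. The median share per barcode was larger under control Ab also at 0.5 to 1%, with 5.23% and 4.96%. At 1 to 2% it was 9.32% and 9.13%, and in the bins above 2% it was larger under anti-CD9 Ab. Each bin mixes cell types, whose numbers differed widely between the libraries.

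Cycling cells fell in 2 clusters. Cluster 21, with 9 of 10 T cell markers up, had an RP share of 9.57% under control Ab and 12.8% under anti-CD9 Ab. It held 37 and 89 cells, so control Ab was below the minimum of 50. Cluster 22, with 3 of 10 microglial markers up, had 6.08% and 5.66% over 59 and 51 cells. Predicted doublets were 19.8% of cluster 21 and 29.1% of cluster 22. Cluster 11, led by *Gzma* and not named because T cell and NK cell markers tied, had 16.9% and 15.0%. Cluster 6, led by *Ttr* and *Cxcl13*, which held 29 cells under control Ab and 1179 under anti-CD9 Ab, had 10.8% and 8.97%. Of the 16 clusters with at least 50 cells in each library, 9 had the higher RP share under anti-CD9 Ab and 7 under control Ab.

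In macrophage-like cells the RP share was higher under anti-CD9 Ab in 4 of the 5 depth bins. It was 8.42% under control Ab and 9.64% under anti-CD9 Ab at 4000 to under 8000 UMIs and 7.08% and 8.26% at 8000 or more, and 10.97% and 9.98% at 2000 to under 4000 UMIs, where control Ab had 26 cells. The lower bins held 2 and 5 control Ab cells. In T cell-like cells it was 11.1% and 11.8% at 500 to under 1000 UMIs, 13.2% and 14.4% at 1000 to under 2000, 12.0% and 12.2% at 2000 to under 4000 and 10.9% and 12.6% at 4000 to under 8000 UMIs.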
